A study of Mus musculus with 8 samples.

Results

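Fc receptors bind the constant part of antibodies and let phagocytes take up particles coated with IgG. Messenger RNA levels of 8 genes of this system were examined in mouse lung neutrophils. They were the activating IgG receptors Fcgr1, Fcgr3 and Fcgr4, the inhibitory IgG receptor Fcgr2b, the signalling chain Fcer1g, the kinase Syk, the neonatal Fc receptor Fcgrt and the Fc receptor-like gene Fcrlb. Members were chosen by name, with their differences in these arrays already known, and each had 1 row among the 19836 genes with a symbol in a table of 24625 rows. Their differences between pneumonia and control are therefore given as a description, with a standard error (SE) and without a p-value.

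Samples came from wild type (WT) mice given either S. pneumoniae (SP), a frequent cause of bacterial pneumonia, or saline (PBS) as a control. Mice were instilled intratracheally on the left side with a volume of 2.3 µl/g, and neutrophils were recovered after 24 h. The labels give an age of 6 to 12 weeks, and the study's methods give a narrower range within it. Per these methods the mice came from C57BL/6J colonies and were matched for age and sex. Neutrophils were bound to magnetic beads through Ly6G, a surface protein of mouse neutrophils, in cell suspensions from lung tissue. RNA of 4 PBS and 4 SP samples was hybridised to 1 Affymetrix Mouse Gene 1.1 ST array each, so the number of arrays limits the precision. The study describes each sample as taken from 1 mouse, so the spread within a group is the spread between these mice.

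Values are log2 signals after robust multi-array averaging, a method that corrects background, normalizes arrays and summarises the probes of a gene. A difference of 1 log2 unit is 2-fold. Levels of different genes rest on different probes and are not set against each other. Rows were compared by limma, a linear model with a shared estimate of spread, and p-values were adjusted over all 24625 rows by Benjamini-Hochberg. A row was called at 2-fold when its adjusted p was at most 0.05 and its difference at least 1 log2 unit.

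The labelled cell type was checked against marker genes of neutrophils and of other lung cells. The study's methods report purity, judged on stained cells, for pneumonia samples and give none for PBS samples. The mean over 11 neutrophil markers lay at 12.25 to 12.50 in PBS arrays and 11.69 to 12.84 in SP arrays. No row could be named as Ly6g through RefSeq here, whereas the study reports high Ly6G mRNA in all samples. Markers of other cells were present too. Means of the endothelium list (10.31 to 11.26 in PBS, 8.53 to 9.75 in SP) and of the epithelium list (11.88 to 12.37 in PBS, 10.33 to 11.30 in SP) did not overlap between groups, and all 8 endothelial and all 7 epithelial genes with a row were lower in SP at an adjusted p of at most 0.05 (limma). PBS replicate 2 and SP replicate 3 lay at the ends of their group in these means. PBS replicate 2 had the highest endothelial and epithelial means and the lowest neutrophil mean of the PBS arrays, and SP replicate 3 had the highest neutrophil mean and the lowest endothelial and epithelial means of the SP arrays. Y-linked genes lay between 4.33 and 4.90 on all arrays, near the bottom of the scale, and this range was taken as the background. In such bulk samples, fewer cells of a type and less RNA per cell cannot be told apart.

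Fcγ receptors differ in what they do with bound IgG. The activating receptors Fcgr1, Fcgr3 and Fcgr4 pair with the γ chain encoded by Fcer1g, whose tyrosine motif (ITAM) is phosphorylated by Src family kinases and then recruits Syk. Fcgr2b carries an inhibitory motif in its own tail, which recruits the lipid phosphatase SHIP1 and dampens these signals. The balance of both kinds of receptor sets how strongly a phagocyte answers to antibody-coated bacteria.

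Expression of 7 of the 8 genes was higher in SP than in PBS arrays, and that of Fcgrt was lower. In SP, Fcgr1 was 32.6-fold, Fcrlb 29.9-fold, Fcgr2b 6.76-fold and Fcgr4 2.96-fold higher. Fcgr3, Syk and Fcer1g were higher by less than 2-fold, and Fcgrt was 4.32-fold lower. At 2-fold, 5 of the 8 genes were called (4 higher, 1 lower), beside 17.6% of all rows (6.37% higher, 11.3% lower). At an adjusted p of at most 0.05 the count was 8 of 8, beside 44.1% of all rows (7 higher beside 21.5%, 1 lower beside 22.6%). Arrays of both groups did not overlap in 8 of 8 genes, beside 49.0% of all rows. The median difference over the 8 genes was 1.18 log2 units, against 0.10 over all rows. Because these genes were picked with the same contrast in view, nothing is read from these counts.

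**Figure D1:**
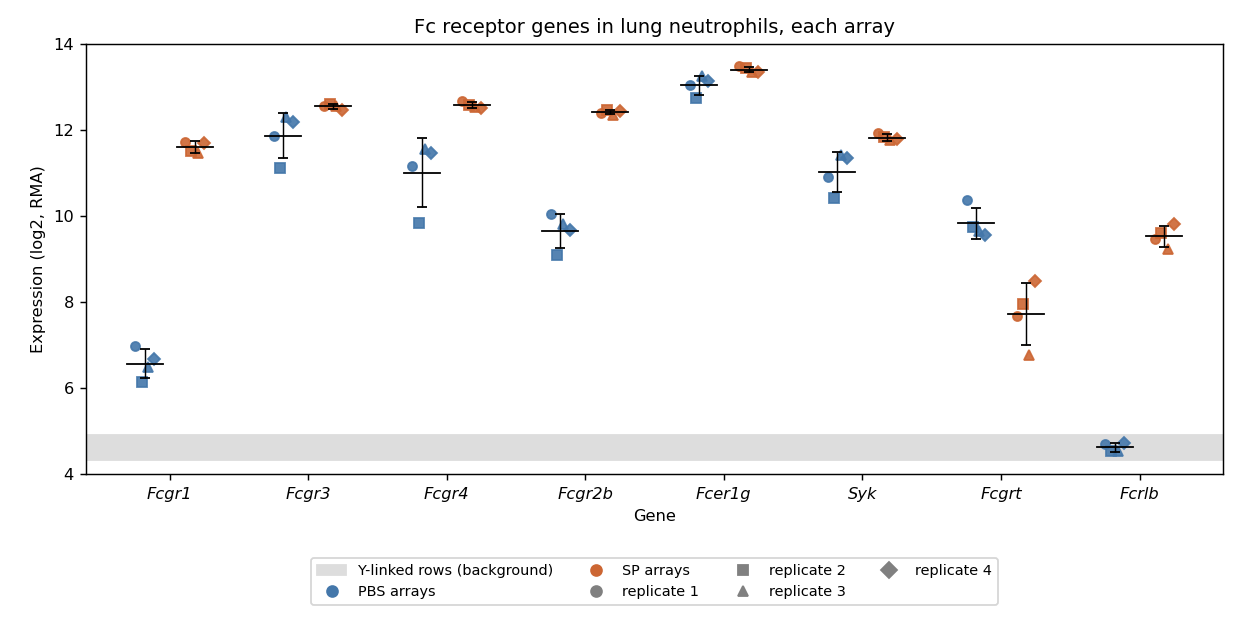
Log2 signal (vertical axis) of the 8 genes in each of 4 PBS and 4 SP arrays, with group means as horizontal lines, SD as error bars and the range of Y-linked rows as a grey band. SP points lie above all PBS points for every gene except Fcgrt, whose SP arrays (6.77 to 8.48) lie below its PBS arrays (9.56 to 10.36).

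Fcgr1 (NM_010186) encodes CD64, the high-affinity IgG receptor, a protein known to be induced on neutrophils by interferon gamma and used as a marker of infection. Its signal was 6.97, 6.15, 6.49 and 6.67 in PBS replicates 1 to 4 and 11.73, 11.51, 11.46 and 11.70 in SP replicates 1 to 4. All SP arrays were thus far above all PBS arrays, and the lowest SP array exceeded the highest PBS array by 4.48 log2 units. Means were 6.57 ± 0.34 and 11.60 ± 0.14 (SD, n = 4 each). The difference of 5.03 log2 units (SE 0.17) was the 13th largest rise of the 24625 rows. Without any 1 array it lay between 4.89 and 5.16.

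Fcgr1 is also expressed by monocytes and macrophages, so their markers are given beside it. Over 11 genes with a row of the monocyte and interstitial macrophage list, means were 9.04, 8.18, 8.67 and 8.58 in PBS replicates 1 to 4 and 8.94, 8.90, 7.93 and 9.43 in SP replicates 1 to 4. Both groups overlapped, and 4 of the 11 genes were higher and 1 was lower in SP at an adjusted p of at most 0.05. SP replicate 3 had the lowest mean of this list among all 8 arrays. Its Fcgr1 signal of 11.46 was also the lowest of the SP arrays, within 0.27 log2 units of the others. Among PBS arrays, replicate 1 was highest and replicate 2 lowest both for this list and for Fcgr1. Over 9 alveolar macrophage markers, means were 8.69 to 9.45 in PBS and 7.71 to 8.41 in SP. No gene of either list lay at the background on all arrays. The part of either cell type in the Fcgr1 difference was not tested.

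Promoter sequence was looked at because Fcgr1 and Fcrlb had rises of similar size on different chromosomes, and because Fcgr4, Fcgr3 and Fcgr2b are neighbours with rises of different size. The 250 bases before the start of each gene were taken from RefSeq (GRCm38.p6) and searched on both strands for TTCNNNGAA (GAS, the interferon gamma activated site), GAAA followed by any 2 bases and GAAA again (core of ISRE, the site type of interferon-stimulated gene factors) and GAGGAAG (core of ETS sites, the family of the myeloid factor PU.1). Shown are the 4 genes with a match, in the direction of transcription, with matched letters in capitals.
Fcgr1, chr3:96293970-96294219, minus strand: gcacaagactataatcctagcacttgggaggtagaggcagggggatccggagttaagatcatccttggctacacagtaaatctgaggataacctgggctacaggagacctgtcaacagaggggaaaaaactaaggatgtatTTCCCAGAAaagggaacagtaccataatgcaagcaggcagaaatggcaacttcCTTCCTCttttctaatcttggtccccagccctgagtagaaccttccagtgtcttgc
Fcgr4, chr1:171018676-171018925, plus strand: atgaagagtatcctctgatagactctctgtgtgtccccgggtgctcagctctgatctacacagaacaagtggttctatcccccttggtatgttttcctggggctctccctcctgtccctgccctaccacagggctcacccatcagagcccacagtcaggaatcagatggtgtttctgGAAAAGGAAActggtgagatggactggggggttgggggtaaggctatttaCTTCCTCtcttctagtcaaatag
Fcgr3, chr1:171059404-171059653, minus strand: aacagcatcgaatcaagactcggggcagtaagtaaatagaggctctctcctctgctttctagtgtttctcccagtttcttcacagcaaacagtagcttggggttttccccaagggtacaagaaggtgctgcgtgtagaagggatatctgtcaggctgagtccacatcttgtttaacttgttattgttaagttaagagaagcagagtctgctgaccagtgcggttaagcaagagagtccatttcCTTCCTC
Fcrlb, chr1:170912942-170913191, minus strand: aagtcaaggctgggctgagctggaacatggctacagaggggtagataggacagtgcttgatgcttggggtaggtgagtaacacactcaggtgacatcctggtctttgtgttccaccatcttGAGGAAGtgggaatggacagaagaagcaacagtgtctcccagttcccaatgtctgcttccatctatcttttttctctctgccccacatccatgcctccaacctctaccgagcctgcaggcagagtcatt

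In the Fcgr1 window, the GAS letters TTCCCAGAA began 109 bases before the start and an ETS core on the other strand 56 bases before it. The Fcgr4 window held the ISRE core GAAAAGGAAA 73 bases and an ETS core 23 bases before the start. Fcgr3 had an ETS core 7 bases before its start (16 bases in a second RefSeq window of this gene), and Fcrlb had one 129 bases before. None of these letters occurred in the windows of Fcgr2b, Fcer1g, Fcgrt and Syk. Of 32851 windows of the same length over all genes, 7.0% held GAS, 3.0% the ISRE core and 10.6% the ETS core. The motifs were chosen with the windows of these genes known, so their matches are not weighed against these shares. A match is a run of letters only, and binding was not measured here.

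Fcgr4 (NM_144559) is the mouse receptor for IgG2a and IgG2b on neutrophils, monocytes and macrophages. It lay at 11.16, 9.84, 11.56 and 11.46 in PBS and at 12.67, 12.58, 12.52 and 12.51 in SP replicates 1 to 4. SP arrays were close together, whereas PBS replicate 2 was low. The mean went from 11.01 ± 0.79 to 12.57 ± 0.07 (SD, n = 4 each), a difference of 1.57 log2 units (SE 0.34). Without PBS replicate 2 the difference was 1.18, the smallest value without any 1 array.

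Fcgr3 (NM_010188), a low-affinity receptor for immune complexes, differed less. It lay at 11.86, 11.12, 12.29 and 12.18 in PBS and at 12.55, 12.60, 12.55 and 12.47 in SP. The groups did not overlap, but the gap between the highest PBS and the lowest SP array was 0.18 log2 units. Means were 11.86 ± 0.52 and 12.54 ± 0.06 (SD, n = 4 each), with a difference of 0.68 (SE 0.23), or 1.60-fold. The size of this difference rested on PBS replicate 2 and on the scaling of the arrays. It was 0.43 without that array, 0.47 after another quantile normalization and 0.96 with arrays centred on their medians.

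Fcgr2b (NM_001077189), the inhibitory receptor, rose more than Fcgr3 and Fcgr4. Its signal was 10.03, 9.10, 9.81 and 9.67 in PBS and 12.40, 12.45, 12.34 and 12.44 in SP. SP arrays lay within 0.11 log2 units of each other and at least 2.31 above every PBS array. Means were 9.65 ± 0.40 and 12.41 ± 0.05 (SD, n = 4 each), and the difference was 2.76 (SE 0.18), or 2.57 without PBS replicate 2. Fcgr2b and Fcgr3 have closely related extracellular parts. Probe positions were not used here, so their values are uncertain, and whether probes of 1 gene also measured the other was not tested.

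Differences between these receptors within an array are not altered by centring that array. Relative to the PBS mean, Fcgr1 minus Fcgr2b was 2.41, 2.14, 2.20 and 2.34 in SP replicates 1 to 4 (2.27 ± 0.12, SD, n = 4). Fcgr3 minus Fcgr2b was -2.06, -2.06, -1.99 and -2.19 (-2.08 ± 0.08), and Fcgr4 minus Fcgr2b was -1.09, -1.22, -1.17 and -1.29 (-1.19 ± 0.08). In each SP array the inhibitory receptor therefore changed less than Fcgr1 and more than Fcgr4 and Fcgr3. After another quantile normalization these 3 differences between groups were 2.48, -2.15 and -1.23. In PBS arrays the same quantities varied around 0 with an SD of 0.17, 0.34 and 0.51 respectively. Whether bright signals of these receptors were compressed was not tested.

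Fcer1g (NM_010185), the γ chain shared by the activating receptors, was close to the top of the scale in both groups. It lay at 13.04, 12.73, 13.24 and 13.14 in PBS and at 13.47, 13.43, 13.34 and 13.35 in SP. The gap between groups was 0.10 log2 units. The difference of 0.36 (SE 0.11), or 1.28-fold, was 0.26 without PBS replicate 2, 0.24 after another quantile normalization and 0.64 with centred arrays. Whether signals this bright were compressed was not tested.

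Syk (NM_001198977), the kinase that binds the phosphorylated γ chain, followed the same order of arrays. It lay at 10.91, 10.43, 11.42 and 11.36 in PBS and at 11.93, 11.83, 11.75 and 11.77 in SP. PBS replicate 2 was again lowest, and SP arrays were within 0.17 log2 units of each other. Means were 11.03 ± 0.46 and 11.82 ± 0.08 (SD, n = 4 each). The difference was 0.79 (SE 0.21), or 1.73-fold, and 0.59 without PBS replicate 2.

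Fcrlb (NM_001029984) encodes an Fc receptor-like protein that stays inside the cell and is best known from B cells. In PBS it lay at 4.71, 4.54, 4.53 and 4.72, within the range of the Y-linked background. In SP it lay at 9.46, 9.61, 9.24 and 9.81, so its signal was at background in every PBS array and well above it in every SP array. The difference was 4.90 log2 units (SE 0.13), the 17th largest rise of all rows, and at least 4.81 without any 1 array. Since the PBS value was at background, its 29.9-fold change is not exact. B cell markers moved the other way, with list means of 7.60 to 8.50 in PBS and 5.78 to 6.92 in SP and all 8 genes lower at an adjusted p of at most 0.05 (limma).

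Fcgrt (NM_010189) encodes the heavy chain of the neonatal Fc receptor, which returns IgG and albumin from endosomes to the cell surface and is expressed by endothelium as well as by myeloid cells. It was the only one of the 8 genes that was lower in SP. Its signal was 10.36, 9.75, 9.66 and 9.56 in PBS and 7.67, 7.96, 6.77 and 8.48 in SP. SP arrays spread over 1.71 log2 units, with replicate 3 lowest and replicate 4 highest. Means were 9.83 ± 0.36 and 7.72 ± 0.71 (SD, n = 4 each), and the difference was -2.11 (SE 0.35).

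Markers of other lung cells moved with Fcgrt. Endothelial list means were 10.92, 11.26, 10.39 and 10.31 in PBS and 9.18, 9.41, 8.53 and 9.75 in SP replicates 1 to 4. SP arrays had the same order for Fcgrt and for this list, whereas in PBS the highest Fcgrt value was in replicate 1 and the highest endothelial mean in replicate 2. Alveolar macrophage list means, 9.45, 8.69, 8.80 and 8.89 in PBS and 8.18, 8.20, 7.71 and 8.41 in SP, had the same order of SP arrays too and, like Fcgrt, were highest in PBS replicate 1. Of the 9 genes of that list, 4 were lower and 1 was higher in SP at an adjusted p of at most 0.05. The part of either cell type in the Fcgrt difference was not tested. Without SP replicate 3 the difference was -1.80, and without SP replicate 4 it was -2.36. B2m, the light chain partner of Fcgrt and of class I molecules, was higher in SP, at 13.69 against 13.42 in PBS (0.28 log2 units, adjusted p = 0.0112 by limma).

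**Figure D2:**
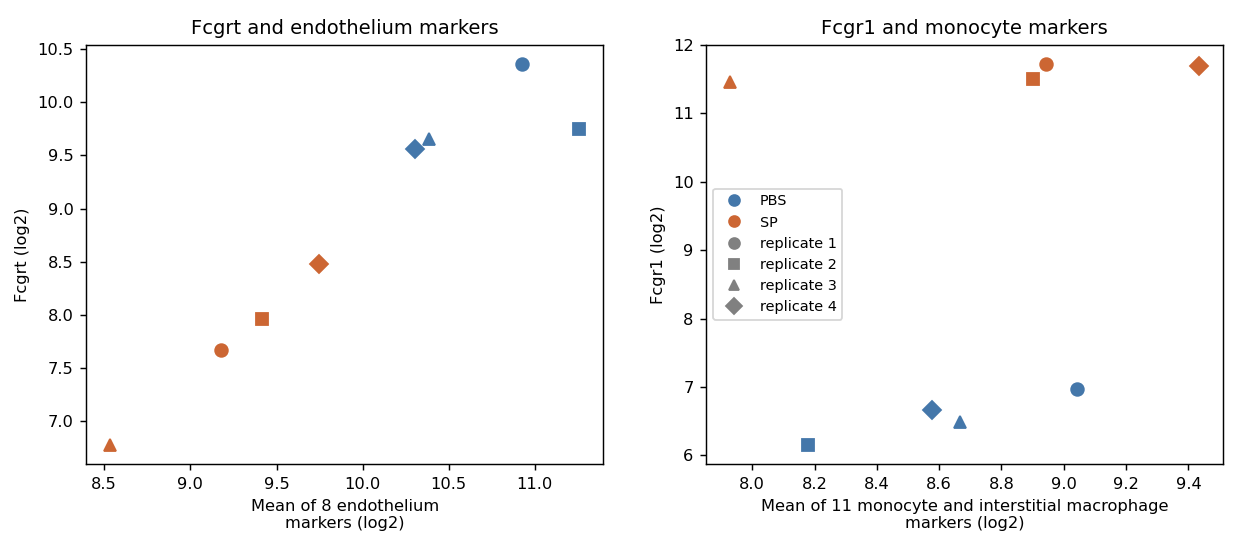
Left, Fcgrt signal (log2, vertical axis) against the mean of 8 endothelium markers (log2, horizontal axis), and right, Fcgr1 signal against the mean of 11 monocyte and interstitial macrophage markers, 1 point per array with groups by colour and replicates by shape. SP arrays have the same order on both axes in the left panel. In the right panel, Fcgr1 lies between 11.46 and 11.73 in SP arrays whose marker means run from 7.93 to 9.43. There, SP replicate 3 is the lowest SP array on both axes, and PBS replicates 1 and 2 are the highest and lowest PBS arrays on both.

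**Figure D3:**
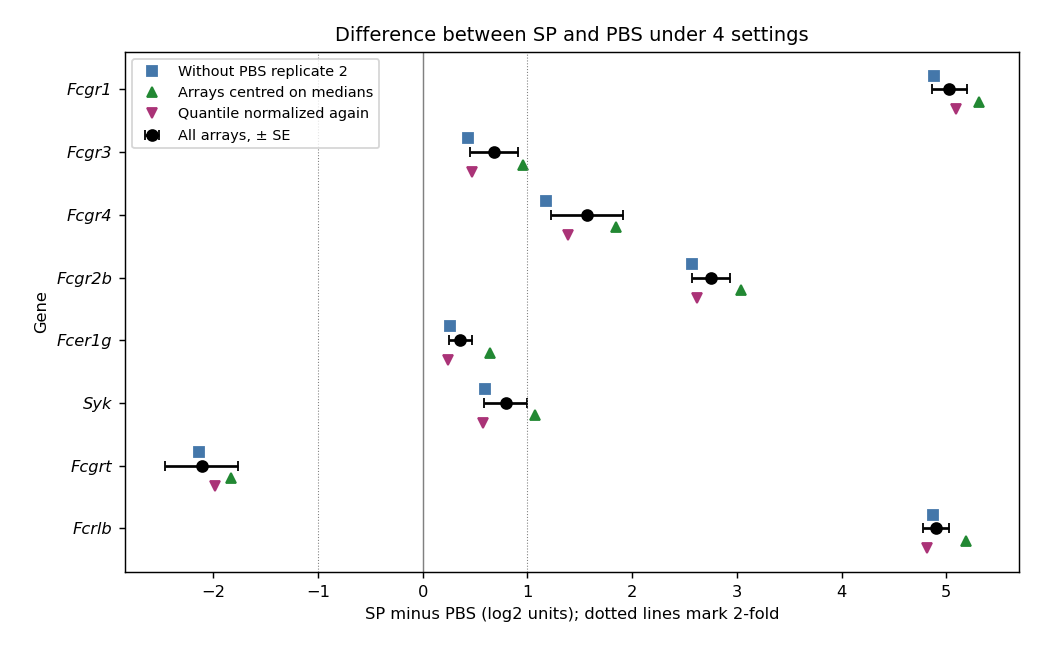
SP minus PBS difference in log2 units (horizontal axis) of the 8 genes with all arrays (circles, ± SE), without PBS replicate 2, with arrays centred on their medians and after another quantile normalization. Each gene keeps its direction, and Fcgr3, Fcer1g and Syk shift most relative to their size.

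Spread between arrays differed between the genes. In 6 of the 8 the SD was larger in PBS than in SP, from 2.54 times for Fcgr1 to 11.1 times for Fcgr4, and the exceptions were Fcgrt and Fcrlb. Over all rows the PBS group had the larger SD in 34.3%. Among 1364 rows with an SP mean of at least 11, which is a brightness that 6 of the 8 genes reached, it was 67.7%, with a median SD of 0.23 in PBS and 0.15 in SP. PBS replicate 2 was the lowest PBS array in 6 of the 8 genes, beside 36.3% of all rows. Without that array, PBS means of Fcgr4, Fcgr3 and Syk were 11.39, 12.11 and 11.23.

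On mouse chromosome 1 of the RefSeq table (GRCm38.p6), 5 of the genes follow each other in the order Fcrlb, Fcgr2b, Fcgr4, Fcgr3 and Fcer1g. Along this order the differences were 4.90, 2.76, 1.57, 0.68 and 0.36 log2 units. PBS means in this order were 4.63, 9.65, 11.01, 11.86 and 13.04, and whether high signals were compressed was not tested. No protein-coding gene lies between Fcgr2b and Fcgr4 or between Fcgr4 and Fcgr3. Between Fcrlb and Fcgr2b lies Fcrla, an Fc receptor-like gene of B cells, which was 7.12 ± 0.51 in PBS and 7.37 ± 0.55 in SP (difference 0.25, SE 0.32, adjusted p = 0.521 by limma). Between Fcgr3 and Fcer1g, Cfap126 and Pcp4l1 were called lower, by 3.55-fold (adjusted p = 2.51e-05) and 7.68-fold (adjusted p = 1.04e-05), and Sdhc, Nr1i3, Tomm40l and Apoa2 differed by less than 2-fold. Genes interleaved with these receptors thus differed in other directions. These intervening genes were looked up after the values of the receptors had been seen. Fcgr1, Fcgrt and Syk lie on chromosomes 3, 7 and 13.

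Genes with the most similar profile were sought for each member by the root mean square distance of row-centred log2 values over the 8 arrays. Closest to Fcgr1 were Ikbke (0.19 log2 units), F10 (0.21) and Ifi205 (0.24), and closest to Fcrlb were Ikbke (0.18), Lacc1 (0.23) and Mir146 (0.24). Fcgr1 and Fcrlb were 0.21 apart. The neighbours of Fcgr2b were Tlr7 (0.13), Tap1 (0.13) and Stat2 (0.14), and those of Fcgr4 were Rtp4 (0.12), Plekho2 (0.12) and Trim30d (0.14). Lpcat2 and Bst1 (0.04 each) and Arg2 (0.06) lay closest to Fcgr3. Fcer1g was nearest to Srd5a3 (0.05), Syk to Siglece (0.06) and Fcgrt to Cryab (0.13). Distances shrink with the size of a gene's difference, so they rank neighbours of 1 gene and are not compared between genes.

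The question of whether other parts of the antibody response differed was addressed with 4 lists of genes around these receptors. Of the list of other Fc receptors, their partners and ligands, 19 of 27 genes had a row, and the 8 without were immunoglobulin genes. At an adjusted p of at most 0.05, 4 rose, 3 fell and 12 did not pass, where 21.5% of all rows were higher and 22.6% lower. Calls at 2-fold were made for 4 (21.1%), near the 17.6% of all rows. Trim21, a cytosolic Fc receptor that binds antibody on intracellular pathogens, was 8.06, 7.50, 8.10 and 7.71 in PBS and 11.22, 11.21, 11.03 and 10.89 in SP, a 9.46-fold rise (adjusted p = 4.34e-06, limma). Ptx3, a pentraxin that binds microbes and Fcγ receptors, rose 4.37-fold (adjusted p = 0.00568) from a PBS mean of 4.67 at background, with SP arrays spread from 5.98 to 8.28.

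Fcrls, a secreted relative of the Fc receptors, fell 4.98-fold (adjusted p = 0.000115) to background in all SP arrays (4.47 to 4.82), so its fold is not exact. Fcmr, the IgM receptor of lymphocytes, fell 3.90-fold (adjusted p = 0.00494). B cell markers also fell, as given above, and their part in the Fcmr difference was not tested. Fcer1a and Ms4a2, the chains that make up the high-affinity IgE receptor of mast cells and basophils together with Fcer1g, lay at 4.35 to 4.87 and 4.44 to 4.93, around the background. Their differences of 0.20 each did not pass (adjusted p = 0.179 and 0.101).

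Of 16 ITAM adaptors and proximal kinases, 3 rose, 3 fell and 10 did not pass at an adjusted p of at most 0.05 (all rows, 21.5% higher and 22.6% lower). Calls at 2-fold were made for 5 (31.2%), beside 17.6% of all rows. Differences of the Src family kinases Lyn (0.33, adjusted p = 0.0615) and Fgr (0.18, adjusted p = 0.578) did not pass, nor did that of the adaptor Tyrobp (0.18, adjusted p = 0.214), all by limma. Kinases of the Tec family moved in both directions. Tec rose 2.57-fold (adjusted p = 0.000328), whereas Bmx fell 3.92-fold (adjusted p = 0.00299).

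Btk, which acts beside Syk in phospholipase activation, rose 1.89-fold (adjusted p = 0.0316), and missed the adjusted p of 0.05 under 6 of 16 alternatives, in which its difference was 0.85 to 0.93 log2 units. Bmx was 9.56, 9.01, 10.34 and 10.28 in PBS and 7.32, 7.54, 8.60 and 7.85 in SP. It was highest in SP replicate 3 among the SP arrays, as was the neutrophil list mean, and its order thus differed from that of Fcgrt. Blk, a kinase of B cells, fell 2.20-fold (adjusted p = 0.000786) to 4.87 in SP, near background, and Yes1 fell 2.04-fold (adjusted p = 0.004), a difference under 2-fold in 6 of 16 alternatives. B cell markers fell as well, and their part in the Blk difference was not tested.

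Of 30 signal proteins downstream of Syk, 10 rose, 6 fell and 14 did not pass (all rows, 21.5% higher and 22.6% lower), and 10 (33.3%) were called at 2-fold, beside 17.6% of all rows. The largest rises were those of Sh3bp2, an adaptor that binds Syk (7.15-fold, adjusted p = 4.39e-05), Malt1, the protease that links this pathway to NF-κB (6.40-fold, adjusted p = 3.71e-06), and Pik3ap1, an adaptor of phosphoinositide 3-kinase (3.63-fold, adjusted p = 0.000229). Malt1 was 9.02, 8.72, 9.19 and 9.09 in PBS and 11.87, 11.63, 11.56 and 11.68 in SP. The largest falls were those of Plcg1 (3.45-fold, adjusted p = 0.00154), Vav2 (2.61-fold, adjusted p = 0.000218) and Blnk (2.09-fold, adjusted p = 0.00877), the last an adaptor of B cells. Plcg2, the phospholipase C that neutrophils mainly use, was 10.13 in PBS and 10.19 in SP (difference 0.06, adjusted p = 0.83), and its sign changed with the setting. Lcp2, the adaptor SLP-76, rose 1.96-fold (adjusted p = 0.0172).

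Of 13 inhibitors of Fc receptor signalling, 6 rose, 1 fell and 6 did not pass (all rows, 21.5% higher and 22.6% lower), and 4 (30.8%) were called at 2-fold, beside 17.6% of all rows. Inpp5d, which encodes the SHIP1 recruited by Fcgr2b, was 10.78, 10.14, 11.01 and 10.91 in PBS and 11.95, 11.97, 11.49 and 11.74 in SP. It rose 2.11-fold (adjusted p = 0.00319, limma). Ubash3b, a phosphatase that acts on Syk, rose 6.17-fold (adjusted p = 3.91e-05), and the docking protein gene Dok1 rose 3.54-fold (adjusted p = 0.00271). Ptpn6, the phosphatase SHP-1, rose 1.98-fold (adjusted p = 0.0159). Inppl1, which encodes SHIP2, fell 2.74-fold (adjusted p = 0.0042).

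**Figure D4:**
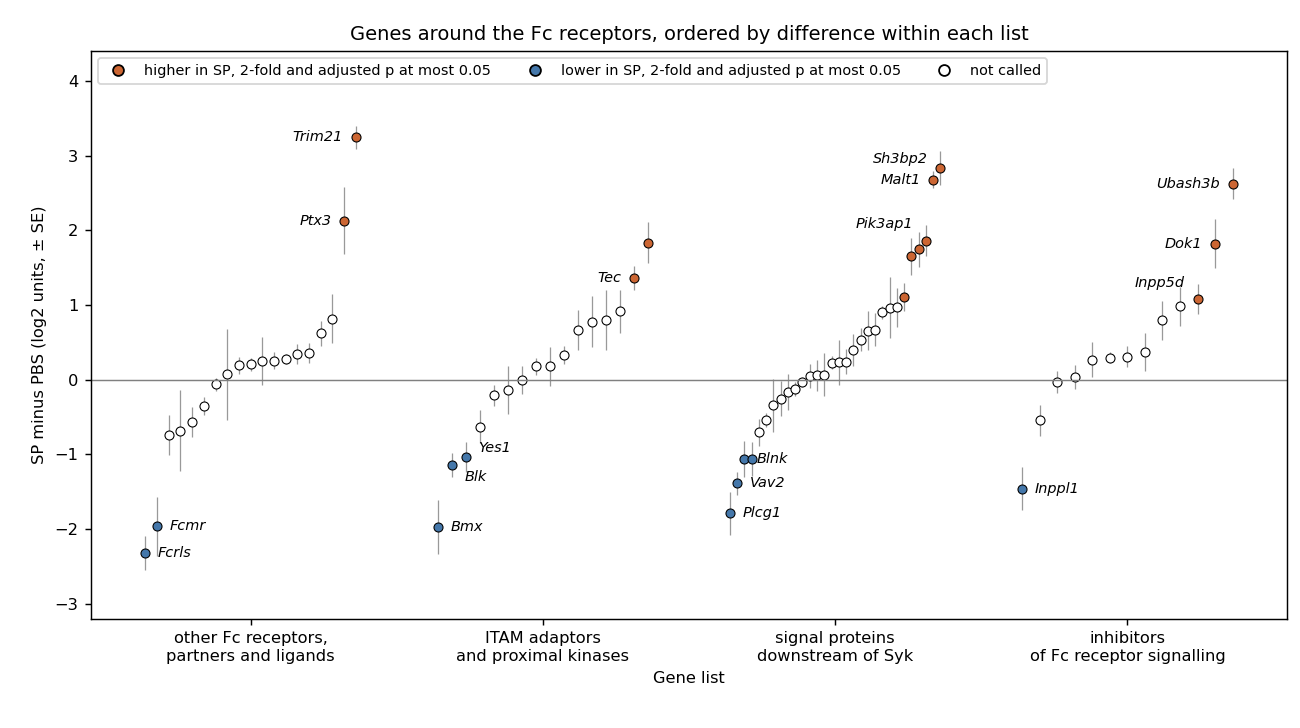
SP minus PBS difference (log2 units, ± SE, vertical axis) of every gene with a row in the 4 lists around the Fc receptors, ordered by size within each list, with filled circles for genes called at 2-fold. Each list holds genes called in both directions, with Trim21, Sh3bp2 and Ubash3b highest in theirs.

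Medians of the 4 lists were 0.20 for other Fc receptors, 0.18 for ITAM adaptors and proximal kinases, 0.23 for signal proteins downstream of Syk and 0.31 for inhibitors, against 0.10 over all rows. SP array medians were 0.28 log2 units below PBS medians, so centring the arrays raises every difference by that amount. Falls smaller than this then become rises. Another quantile normalization turned the small rises of Tyrobp, Fgr and Plcg2 into falls, as given below.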

How the data were processed

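Total RNA of 8 lung neutrophil samples was profiled, 1 array each. Per the study's methods, the authors applied robust multi-array averaging (background corrected, probes adjusted for base composition, arrays quantile normalized, probes of a gene summarised by median polish) and mapped probes to genes with their own assignments. The deposited values are on a log2 scale. Values are relative within an array, so a change in total RNA per cell cannot be read from them. Groups and replicate numbers followed the sample titles, and all 8 value columns were used. Symbols came from a RefSeq table (GRCm38.p6), which named 19915 of 24625 rows (80.9%). Where several rows shared a symbol, the row with the highest mean was taken, which concerned 78 symbols and no member.

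All rows were fitted with limma 3.58.1 (R 4.3.3; lmFit and eBayes, no covariate, two-sided, Benjamini-Hochberg). Thresholds were an adjusted p of 0.05 and 2-fold. The script was tested on simulated data. Members, lists and promoter motifs were chosen with earlier results of these data, or the promoter windows, known. Named were the members, the 3 largest rises and 3 largest falls called at 2-fold in each list, 13 fixed genes of these lists, and the 3 genes nearest to each member (for 3 members, only the nearest is printed). Some genes of the lists are counted but not reported here by name. Alternatives were the methods' t-test, a robust prior with trend, a replicate block, array weights, centred arrays, another quantile normalization, dim rows left out, treat, 1 row per symbol and leaving out each array. Replicate numbers were not taken as pairs in the main fit, and the labels do not state a pairing. Same-numbered samples had deviations correlating at 0.02, 0.03, 0.35 and -0.27, which cannot settle whether samples were paired. No single array was flagged by Dixon's ratio in any of 76 groups of 4 tested, a check that flags about 1 in 20 by chance. With 4 values per group it can miss an array that lies apart. It therefore does not clear PBS replicate 2, the lowest PBS array in most of the members.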

Additional observations from a re-analysis of the deposited data

How the results depend on the processing

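In 128 values of the 8 receptor genes under 16 alternatives, none changed direction. The t-test, robust prior, replicate block, leaving out dim rows and 1 row per symbol do not alter a difference itself. Only the other alternatives could change a direction or a fold. Of 475 values of the named list genes, 452 kept their direction and their side of an adjusted p of 0.05. Of 19 such genes called at 2-fold, 14 differed at least 2-fold under every alternative with a value. Differences under 2-fold were seen for Yes1 (-0.99 to -0.74 in 6 alternatives), Blnk (-0.93 to -0.71 in 5), Blk (-0.99 and -0.86), Inpp5d (0.88 and 0.89) and Vav2 (-0.998 after another quantile normalization). When limma treat required a difference above 1 log2 unit, rows called fell to 1572 (from 4341), receptor genes to 3, other Fc receptors to 2, signal proteins downstream of Syk to 3 and inhibitors to 1, and ITAM adaptors and proximal kinases to 0 (3 at an unadjusted p under 0.05), against 5 by limma without that demand. Leaving out dim rows left 2 calls among other Fc receptors, with fewer genes tested. Without any 1 array, calls ranged from 3982 to 4657 for rows, 5 to 5 for receptor genes, 4 to 5 for other Fc receptors, 4 to 6 for ITAM adaptors and proximal kinases, 9 to 11 downstream of Syk and 3 to 5 for inhibitors. Signs turned for Tyrobp (-0.0107 after another quantile normalization), for Fgr and Plcg2 with array weights (-0.0669 and -0.0419), with quantile normalization repeated (-0.0527 and -0.0512) and without PBS replicate 2 (-0.0883 and -0.154; without any 1 array up to 0.33 and 0.21), and the cause was not tested. Marker list means turned to 0.0277 for neutrophils and 0.0348 for mast cells and basophils with centred arrays, and the monocyte and macrophage mean to -0.0259 without SP replicate 4 (up to 0.48 without any 1 array). With a replicate block, 4324 rows were called, Btk missed the adjusted p of 0.05, and calls in the receptor genes and the 4 lists kept their number. Btk also missed it by the methods' t-test, when quantile normalization was repeated, and without PBS replicate 1, SP replicate 1 or SP replicate 2. Lyn, Tyrobp, Fcer1a and Ms4a2 passed with centred arrays, which gave 2375 higher and 1896 lower rows in place of 1568 and 2773, whereas another quantile normalization gave 1878 and 2198. Among receptor genes, centring gave 5 called higher and 1 lower. The number of arrays and the closeness to background of Fcrlb and Ptx3 in PBS and of Fcrls and Blk in SP limit the precision of their folds.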

Other observations

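Related proteins of the Fc receptor pathway moved in different directions. Vav1, the form found in blood cells, rose 3.15-fold (adjusted p = 0.00106, limma), while the widely expressed Vav2 fell 2.61-fold (adjusted p = 0.000218). Inpp5d, mainly of blood cells, rose 2.11-fold (adjusted p = 0.00319), while the widely expressed Inppl1 fell 2.74-fold (adjusted p = 0.0042). Plcg1, also widely expressed, fell 3.45-fold (adjusted p = 0.00154), while the difference of Plcg2 of 0.06 did not pass (adjusted p = 0.83). In SP, Plcg1, Vav2 and Inppl1 were lowest in replicate 3 (7.08, 6.04 and 6.17) and highest in replicate 4 (8.31, 6.79 and 7.47), the arrays with the lowest and highest endothelial and epithelial means. The part of those cells in these falls was not tested. These pairs were chosen after their values had been seen, and Vav1 lay outside the naming rule.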
